A study of Mus musculus with 78 samples.

Results

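The comparison described here set the partially ligated left common carotid artery (LCA) of vehicle-treated mice 48 h after surgery against the same artery 24 h after surgery. The 10 arrays were taken by their labelled artery, agent and time, 5 at 48 h and 5 at 24 h, out of 78 arrays in the series. All mice had partial ligation surgery of the LCA, and none was left without surgery. The unligated right common carotid artery (RCA) of each mouse was the control artery. Daily oral dosing began 2 days before surgery, with vehicle in both groups compared here and with 10 mg/kg/day of atorvastatin, a cholesterol-lowering statin, in parallel groups. The arteries were collected at 12 h, 24 h, 48 h or 2 weeks. The 48 h and 24 h arrays came from different mice, so the comparison was unpaired. It was set beside the RCA of the same vehicle-treated mice, with 5 arrays at 48 h and 5 at 24 h, and beside the LCA of atorvastatin-treated mice, with 4 arrays at 48 h and 5 at 24 h. Strain, sex and age are not given in the labels. RNA was flushed from the lumen with a lysis reagent, which enriches for endothelium without purifying it, and was hybridised to Affymetrix arrays. All levels below are log2 values, so a difference of 1 is a 2-fold change.

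Partial ligation blocks outflow from one carotid artery, so that blood flow there turns low and oscillating, while the opposite carotid keeps its laminar flow. Endothelial cells sense this shear stress. Laminar flow keeps them quiescent and raises transcription factors of the Krüppel-like family, whereas disturbed flow is known to raise adhesion molecules, to let leukocytes attach and to start endothelial proliferation before an atherosclerotic plaque forms.

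The 10 arrays had similar medians, between 4.59 and 4.72. The endothelial markers were high on all of them: the mean of 17 endothelial genes was 9.24, 9.66, 9.27, 9.89 and 9.30 in 48 h mice 1 to 5, against 9.81, 9.58, 9.79, 9.96 and 9.63 in 24 h mice 1 to 5. In each group mouse 4 was the array least like the others. For each array, the deviation from the mean of the 10 arrays was correlated with that of the rest of its group, over all tested genes. The correlation was −0.47 for 48 h mouse 4, and 0.64 to 0.83 for 48 h mice 1, 3 and 5. For 48 h mouse 2 it was 0.23, so this array too lay away from those 3. The same correlation was 0.29 for 24 h mouse 4, against 0.57 to 0.69 for the other 24 h mice. Leaving out 48 h mouse 4 and 24 h mouse 4 together was an alternative chosen after seeing the data. It is given for the counts over all genes in the LCA and in the LCA minus RCA difference. Of the lists it is given for neutrophil and antigen presentation genes only. As a sign of RNA quality and labelling, the log2 ratio of the 3′ to the 5′ Gapdh control probe sets was 3.95 ± 0.42 in the 48 h LCA and 4.98 ± 0.47 in the 24 h LCA (SD, n = 5 each; two-sided exact permutation p = 0.0159, where the smallest possible is 0.00794). In the RCA the ratio ran the other way, 4.33 ± 0.20 at 48 h and 4.04 ± 0.24 at 24 h (SD, n = 5 each; exact permutation p = 0.0397). The b-actin ratio averaged −0.04 at 48 h and −0.03 at 24 h in the LCA (exact permutation p = 0.952). The part of this ratio in the gene changes was not tested beyond its use as a covariate, given below as the Gapdh covariate. According to the labels the RNA was extracted and profiled in 4 batches, but no array is assigned to one, so batch and time cannot be told apart.

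Between 24 h and 48 h the ligated carotid changed widely: cell cycle, ribosome-building, tip cell and leukocyte genes were higher at 48 h, and more clock and fasting-type genes were lower than higher. Of 11344 genes tested, 3596 (31.7%) passed an adjusted p of 0.05 in limma, 1957 (17.3%) higher at 48 h and 1639 (14.4%) lower. The large changes were mostly rises: 232 genes (2.05%) rose by at least 2 on the log2 scale and 56 (0.494%) fell by at least that much. The median difference over all tested genes was 8e-04, which the normalization of the arrays to each other holds near 0. The 5 values of each group did not overlap for 1541 genes (13.6%). Because the RNA came from a mixture of cells, fewer cells of a type and less RNA per cell cannot be told apart in any of these values. Without both mouse 4 arrays 4347 genes passed, and with single mice left out the count lay between 2467 (without 48 h mouse 3) and 4417 (without 48 h mouse 4). With the Gapdh covariate 2965 passed, 2315 of them among the 3596.

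Among the called genes, the 48 h mice differed in how many values stood outside the 24 h range. Of the 1957 genes that rose, 96.3% stood above all 24 h values in 48 h mouse 1, 98.3% in mouse 3 and 97.5% in mouse 5. The share was 82.1% in mouse 2 and 39.7% in mouse 4. Of the 1639 genes that fell, 94.4%, 72.6%, 97.9%, 56.9% and 96.5% stood below all 24 h values in mice 1 to 5. These shares were highest in mice 1, 3 and 5 and lowest in mouse 4. The genes were called with these same arrays, so a mouse near its group mean has a high share in part by selection. The same shares over all tested genes were not computed.

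No such change was called in the unligated artery. In the RCA of the same mice none of the 11344 genes passed between 48 h and 24 h (0%), although 1059 (9.34%) had an unadjusted p under 0.05. With a trended, robust variance the count there was 5, and with array weights 33. When the difference between LCA and RCA was taken within each mouse first, the 48 h against 24 h contrast of that difference passed for 3149 genes (27.8%), 1705 (15%) higher and 1444 (12.7%) lower. That count was 884 with the Gapdh ratio as a covariate and 3750 without both mouse 4 arrays, 2113 higher and 1637 lower.

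Of the tested genes, 630 (5.55%) were called higher and 695 (6.13%) lower with groups that did not overlap. Among these the largest rises were led by leukocyte genes. Clec4n, a C-type lectin receptor of myeloid cells, had values of 7.92, 8.59, 9.97, 7.87 and 8.77 at 48 h, against 4.37, 4.74, 3.45, 6.69 and 3.52 at 24 h. All 48 h mice lay above all 24 h mice, and the difference was 4.07 ± 0.66 (SE; limma, adjusted p = 0.000122). Sorl1, a sorting receptor of the low-density lipoprotein receptor family, had 6.82, 6.50, 8.29, 5.03 and 8.06 at 48 h, against 3.60, 2.83, 2.94, 3.63 and 2.81 at 24 h. It rose by 3.78 ± 0.53, with 48 h mouse 4 lowest of its group. The others of the top 10 were Cd244a (3.87), a receptor of natural killer and other leukocytes, Sla (3.73), an adaptor that dampens antigen-receptor signalling, Runx3 (3.67), a leukocyte transcription factor, Coro1a (3.54), an actin-binding protein of leukocytes, Cytip (3.54), Mpeg1 (3.52), the macrophage pore-forming protein, Ptprc (3.51), the leukocyte antigen CD45, and one cell cycle gene, Dtl (3.53). With the mean of a gene's probe sets in place of the brightest one, the rises were 2.34 for Cd244a, 2.04 for Dtl and 2.04 for Runx3.

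The largest falls among these genes were of another kind. Fmo1, a flavin monooxygenase that oxidises drugs and other foreign compounds, had 3.73, 9.02, 6.46, 9.30 and 3.40 at 48 h, against 10.09, 9.48, 9.63, 9.31 and 10.17 at 24 h. Mice 1, 3 and 5 were far below the 24 h range and mice 2 and 4 just below it, and the gene fell by 3.35 ± 0.89 on the log2 scale (limma, adjusted p = 0.00509). Sult1a1, a phenol sulfotransferase, had 4.58, 6.16, 5.75, 7.83 and 4.32 at 48 h, against 9.08, 8.47, 8.26, 8.66 and 9.18 at 24 h. It fell by 3.0 ± 0.52 with no overlap. Vwc2, a secreted antagonist of bone morphogenetic proteins, had 2.62, 4.05, 3.01, 4.01 and 2.44 at 48 h, against 5.93, 6.36, 6.97, 5.84 and 6.84 at 24 h. It fell by 3.16 ± 0.38 (limma, adjusted p = 4.3e-06) with no overlap, and with the mean of its probe sets it fell by 1.69. All 48 h values of Vwc2 lay below the array medians, so the size of its fall is uncertain. The others were Fam107a (−3.29), an actin-bundling protein known as a glucocorticoid-responsive gene, Stk32b (−2.90), Slco2b1 (−2.81), an organic anion transporter, Fmo5 (−2.64), Klk11 (−2.62), a kallikrein-related protease, Atp2b2 (−2.59), a plasma membrane calcium pump, and Zbtb16 (−2.55), a transcription factor that glucocorticoids raise. With the mean of their probe sets Slco2b1 fell by 1.86 and Zbtb16 by 1.5.

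**Figure D1:**
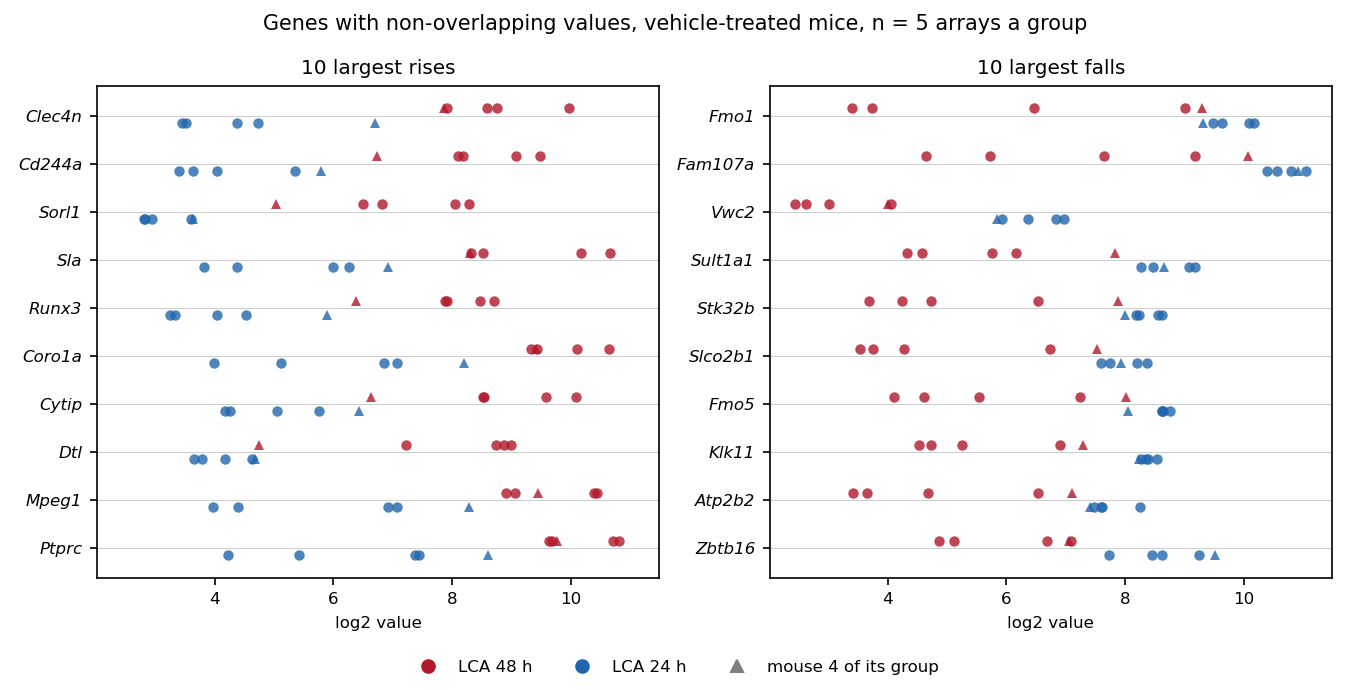
Log2 value on each LCA array, 48 h in red and 24 h in blue, with a triangle for mouse 4 of each group. Shown are the 10 largest rises (left) and the 10 largest falls (right) among called genes whose groups did not overlap. Predicted genes were left out. Larger rises with overlapping groups, such as that of Esm1 (5.48), are not shown. In Clec4n all 48 h points lie above the highest 24 h value of 6.69, and in Fam107a 48 h mouse 4 is the nearest of its group to the 24 h points.

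Cell cycle genes rose almost without exception. Of 28 tested genes of DNA replication and S phase 27 rose and none fell, with a median difference of 1.70, against 17.3% of all tested genes called higher. Of 27 mitosis genes 25 rose and none fell, with a median of 2.00. The list means show which mice carried this: the S phase genes averaged 8.63, 7.06, 8.18, 5.76 and 8.21 at 48 h, against 5.82, 5.72, 5.64, 6.01 and 5.65 at 24 h. Mice 1, 3 and 5 were highest, mouse 2 lay between, and mouse 4 lay within the 24 h range. The mitosis genes averaged 7.24, 5.86, 6.80, 4.82 and 7.16 at 48 h, against 4.84, 4.39, 4.22, 4.86 and 4.05 at 24 h, with mouse 4 again within the 24 h range. For these and all other lists, only members above the array median on at least 4 arrays were tested, so a gene could be tested on the strength of the group where it was high. The list counts in the vehicle LCA are to be read against 17.3% of all tested genes higher and 14.4% lower.

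Mcm5, a subunit of the helicase that unwinds DNA at replication forks, had 9.30, 8.34, 9.21, 5.96 and 9.30 at 48 h, against 5.21, 5.88, 4.72, 6.18 and 5.09 at 24 h. Of the 48 h mice, mouse 4 alone lay inside the 24 h range, and the difference was 3.0 ± 0.61 (limma, adjusted p = 0.000662), or 1.8 with the mean of its probe sets. Rrm2, the regulated subunit of the enzyme that makes deoxyribonucleotides, rose by 3.09 ± 0.66. Cdt1, which licenses replication origins, rose by 2.97, and Gins1, part of the replicative helicase, by 2.85. Pcna, the sliding clamp of DNA polymerase, rose by 1.28. Its 48 h mean was 11.12 and its 24 h mean 9.83.

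Among the mitosis genes Mki67, the nuclear protein used to mark dividing cells, had 10.91, 9.88, 10.71, 8.54 and 10.85 at 48 h, against 8.28, 7.38, 5.72, 8.38 and 5.37 at 24 h. All 48 h mice were above all 24 h mice, mouse 4 by a small margin, and the rise was 3.15 ± 0.58 (limma, adjusted p = 0.000307). Birc5, the chromosomal passenger protein survivin, rose by 2.68 ± 0.49, Ube2c, a ubiquitin-conjugating enzyme of mitotic exit, by 2.59 ± 0.43, and Ect2, which directs the cleavage furrow, by 2.60 ± 0.61. The control artery bears on this group: Mki67 was 1.39 higher at 48 h in the RCA too, without passing the test, and the median of the mitosis genes there was 0.71, against −0.08 for the S phase genes. In the difference between LCA and RCA 25 of 28 S phase genes were still higher, against 8 of 27 mitosis genes, and Mki67 was not called (1.76, adjusted p = 0.167).

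Promoters of cell cycle genes are known to hold recurring elements, and 4 promoters of leading members of these lists are shown to illustrate the matches counted after them. They were chosen because they hold one, and the promoters of Birc5, Rrm2, Psat1 and Cebpb, members that rose too, held no match to the motif searched for their list. The rise of Cebpb was 1.57, but 0.46 and not called with the mean of its probe sets (limma, adjusted p = 0.0768). The sequences are those of RefSeq on GRCm38.p6, from 250 bases before to 50 bases after the transcript start, on the strand of the gene. Capitals mark CCAAT, the box bound by NF-Y, and TTTGAA, the core of the cell cycle genes homology region, in Mki67 (chr7:135716330-135716629, minus strand) and Ect2 (chr3:27153829-27154128, minus strand). In Mcm5 (chr8:75109259-75109558, plus strand) they mark TTTNNCGC, an E2F-type site, and its 2 matches, on opposite strands, overlap. In Asns (chr6:7693160-7693459, minus strand), described further on, they mark TGATGNAA, an ATF4-type site. Both strands were searched.
Mki67: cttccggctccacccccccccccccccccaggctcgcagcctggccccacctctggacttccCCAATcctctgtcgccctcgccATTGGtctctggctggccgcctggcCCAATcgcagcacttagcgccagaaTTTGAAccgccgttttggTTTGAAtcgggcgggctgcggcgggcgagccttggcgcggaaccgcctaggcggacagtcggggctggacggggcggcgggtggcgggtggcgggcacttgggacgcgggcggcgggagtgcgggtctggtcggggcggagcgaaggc
Ect2: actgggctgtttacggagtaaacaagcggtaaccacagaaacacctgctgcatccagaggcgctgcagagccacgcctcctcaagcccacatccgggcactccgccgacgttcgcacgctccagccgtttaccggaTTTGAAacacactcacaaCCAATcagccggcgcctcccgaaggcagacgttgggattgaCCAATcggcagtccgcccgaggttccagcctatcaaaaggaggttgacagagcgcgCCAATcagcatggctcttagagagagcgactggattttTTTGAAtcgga
Mcm5: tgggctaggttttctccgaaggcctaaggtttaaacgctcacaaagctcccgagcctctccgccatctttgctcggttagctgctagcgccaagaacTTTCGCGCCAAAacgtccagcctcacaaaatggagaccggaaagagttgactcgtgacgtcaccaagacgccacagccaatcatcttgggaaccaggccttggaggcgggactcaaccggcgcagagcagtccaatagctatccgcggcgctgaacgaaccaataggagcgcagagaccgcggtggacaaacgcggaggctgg
Asns: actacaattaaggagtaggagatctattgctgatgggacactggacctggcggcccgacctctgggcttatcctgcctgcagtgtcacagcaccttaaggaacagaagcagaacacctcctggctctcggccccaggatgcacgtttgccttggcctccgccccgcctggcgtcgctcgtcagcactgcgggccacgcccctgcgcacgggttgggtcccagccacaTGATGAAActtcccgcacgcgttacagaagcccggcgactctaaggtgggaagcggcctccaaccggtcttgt

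Of the 25 mitosis genes that rose, 19 had a promoter in the table. TTTGAA was in 16 of these (84.2%), against 12.0% of the promoters of 9149 tested genes. CCAAT was in 15 (78.9%), against 38.2%, and both were in 14 (73.7%), against 4.78%. TTTNNCGC was in 10 of 23 S phase genes that rose (43.5%), against 8.58% of all. Of the 6 genes of the ATF4 list that rose, 5 had a promoter, and TGATGNAA was in 1 of these, Asns, against 2.2% of all. Since 25 of 27 tested mitosis genes and 27 of 28 S phase genes rose, these shares describe lists of known cell cycle genes. Whether the motifs go with the rise was not tested. The matches describe letters in a window and no factor's binding was measured.

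Genes that build ribosomes rose with the cell cycle. Of 18 tested genes of ribosome biogenesis 15 rose (83.3%, against 17.3% of all tested genes) and none fell, with a median of 1.11. In the difference between LCA and RCA 13 were higher. Nhp2, a protein of the small nucleolar particles that pseudouridylate ribosomal RNA, had 9.91, 8.69, 9.84, 8.26 and 9.35 at 48 h, against 6.75, 5.80, 6.76, 7.37 and 6.70 at 24 h. There was no overlap, and the rise was 2.53 ± 0.43 (limma, adjusted p = 0.000176). Fbl, the ribosomal RNA methylase fibrillarin, had 10.29, 9.71, 10.28, 9.29 and 10.19 at 48 h, against 8.42, 8.11, 8.09, 8.80 and 8.30 at 24 h. It rose by 1.61 ± 0.22, and all 5 mice at 48 h, mouse 4 included, were above the 24 h values. Pno1 and Rrp12, both needed for the small ribosomal subunit, rose by 2.05 and 1.84.

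Metabolic lists were mixed. The ATF4 targets and amino acid synthesis list had 6 genes higher and 4 lower of 19 tested (31.6% and 21.1%, against 17.3% and 14.4% of all). Asns, asparagine synthetase, had 8.30, 6.31, 7.88, 3.52 and 7.91 at 48 h, against 3.33, 3.63, 3.78, 4.31 and 3.47 at 24 h. All 48 h mice except mouse 4, which lay inside the 24 h range, were well above every 24 h mouse, for a rise of 3.08 ± 0.65 (limma, adjusted p = 0.000896). Psat1, of serine synthesis, rose by 2.66 and Slc7a5, an amino acid transporter, by 2.05. Among the members that fell was Trib3, a pseudokinase induced by stress, by 1.09.

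Of 19 genes of glycolysis and hypoxia 6 rose (31.6%) and 2 fell (10.5%), against 17.3% and 14.4% of all tested genes. Pgk1, phosphoglycerate kinase, had 11.40, 10.82, 11.59, 9.73 and 11.61 at 48 h, against 9.62, 9.42, 9.36, 10.47 and 9.48 at 24 h, and rose by 1.36 ± 0.29 (limma, adjusted p = 0.00103), with 24 h mouse 4 above 48 h mouse 4. Egln3, an oxygen-sensing prolyl hydroxylase, rose by 1.89, while Bnip3, a mitophagy receptor also raised in hypoxia, fell by 0.79. With the Gapdh ratio as a covariate 3 rose and 1 fell. Of 18 endoplasmic reticulum chaperone genes 6 rose (33.3%) and 1 fell (5.56%). Among those that rose was Edem1 (1.16), which directs misfolded glycoproteins to degradation. With the Gapdh covariate 2 of the list rose. The respiratory chain list stood near all tested genes, with 4 of 22 higher (18.2%, against 17.3% of all) and 1 lower (4.55%, against 14.4%) and a median of 0.12, although cytochrome c, Cycs, rose by 1.79 ± 0.34. Of 14 genes of cholesterol synthesis and uptake 3 rose (21.4%) and 1 fell (7.14%). Among those that rose were Sqle (1.42) and Mvd (1.20, or 0.63 with the mean of its probe sets). The member that fell was Insig1 (−0.73), which holds back that pathway and was not called with the Gapdh covariate (adjusted p = 0.0687). Without 48 h mouse 4 the count of the cholesterol list was 7 higher and 1 lower.

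Tip cell genes, those of endothelial cells that lead a sprouting vessel, were mostly higher. Of 21 tested 12 rose (57.1%, against 17.3% of all tested genes) and 1 fell, with a median of 0.98. Esm1, the secreted proteoglycan endocan, had 10.48, 7.85, 10.26, 2.56 and 10.29 at 48 h, against 2.70, 2.65, 2.57, 3.01 and 3.11 at 24 h. All other 48 h mice were far above the 24 h mice, and mouse 4 had the lowest value of all 10, so the rise of 5.48 came with an SE of 1.17 (limma, adjusted p = 0.000979). All 24 h values of Esm1 lay below the array medians, and whether they were above background was not tested, so the size of its difference is uncertain. Igfbp3, an insulin-like growth factor binding protein, had 9.39, 6.64, 7.29, 2.54 and 9.51 at 48 h, against 2.28, 2.40, 2.21, 3.50 and 2.56 at 24 h. Mouse 4 was again within the 24 h range, and the rise was 4.48 ± 0.92. All 24 h values of Igfbp3 lay below the array medians too, so the size of its rise is likewise uncertain. That holds for any other gene with all values of a group below the medians, such as Asns and Sorl1 at 24 h.

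Among ligands and receptors of the same list, Angpt2, the ligand that opposes angiopoietin 1 at the Tie2 receptor, had 10.05, 7.88, 9.80, 5.48 and 10.00 at 48 h, against 5.93, 5.91, 5.22, 6.12 and 6.21 at 24 h. It rose by 2.76 ± 0.76, with mouse 4 inside the 24 h range. Of the receptors of vascular endothelial growth factor, Flt1 rose by 1.53 and Kdr by 1.24 ± 0.35, whereas the co-receptor Nrp1 was the member that fell, by 0.72. That last call was lost without any of 7 of the 10 mice (adjusted p = 0.0501 to 0.132). Pdgfb, which recruits mural cells, rose by 1.24. In the difference between LCA and RCA 12 of the 21 were higher and none lower.

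Among matrix genes, Col4a1, a chain of the main basement membrane collagen, had 11.09, 10.92, 10.93, 10.66 and 11.17 at 48 h, against 10.08, 10.16, 9.41, 10.50 and 9.96 at 24 h. The groups did not overlap, and the rise was 0.93 ± 0.19 (limma, adjusted p = 0.000779). Col4a3, a chain of another type IV collagen network, fell by 2.02 ± 0.51. Of 25 extracellular matrix genes 5 rose (20%, against 17.3% of all tested genes) and 2 fell (8%, against 14.4%), with a median of 0.00, so the list was close to all genes. Of 22 matrix proteases and inhibitors 9 rose (40.9%) and 1 fell. Plau, urokinase, had 9.92, 8.68, 9.44, 7.69 and 9.82 at 48 h, against 6.45, 7.72, 5.88, 6.78 and 6.99 at 24 h. It rose by 2.35 ± 0.53, with 48 h mouse 4 just below 24 h mouse 2, and its receptor Plaur by 1.91 ± 0.39. Adamts4, which cleaves proteoglycans, rose by 2.97 ± 0.85, and the inhibitor Timp2 fell by 1.03.

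Of 10 targets of YAP and TAZ, transcriptional co-activators that respond to mechanical cues, 4 rose and none fell. Ccn1 had 11.47, 11.78, 11.88, 10.30 and 11.46 at 48 h, against 8.63, 9.05, 7.45, 10.27 and 8.89 at 24 h. All 48 h values were above all 24 h values, mouse 4 of each group being nearest, and the rise was 2.52 ± 0.49 (limma, adjusted p = 0.000483). Ccn2 rose by 1.56 in the LCA and was 0.62 higher in the RCA, and the difference between them was not called (0.94, adjusted p = 0.162). Of 13 ERK feedback genes 4 rose. Ccnd1, cyclin D1, had 10.47, 9.53, 10.90, 9.02 and 10.34 at 48 h, against 8.37, 8.35, 7.17, 8.0 and 8.35 at 24 h. It rose by 2.00 ± 0.38 with no overlap. Of 18 immediate early genes 6 rose, but their list mean was highest in 48 h mice 2 (8.59) and 3 (8.33), and 3 rose without mouse 2.

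Every one of the 19 tested genes of leukocyte receptors and signalling rose, with a median of 2.53, and 17 were higher in the difference between LCA and RCA. Ptprc had 9.63, 9.69, 10.81, 9.76 and 10.72 at 48 h, against 7.37, 7.45, 4.22, 8.60 and 5.42 at 24 h. Tyrobp, the signalling adaptor of myeloid receptors, had 10.32, 10.55, 11.37, 10.05 and 10.95 at 48 h, against 8.52, 6.95, 6.53, 9.55 and 6.29 at 24 h. Its rise was 3.08 ± 0.58 (limma, adjusted p = 0.000379), and in both genes the 5 values of the groups did not overlap, 24 h mouse 4 being the highest of its group. Itgax, the integrin CD11c of dendritic and other myeloid cells, had 6.84, 6.89, 7.61, 7.26 and 7.45 at 48 h, against 3.73, 4.18, 3.04, 4.69 and 3.58 at 24 h. It rose by 3.36 ± 0.47. Cd209a, a lectin of monocyte-derived dendritic cells, rose by 1.6, so that 2 of 4 dendritic cell markers were higher. All 24 h values of Cd209a lay below the array medians, so the size of its rise is uncertain.

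Within the leukocyte genes the mice differed by list. The neutrophil list, of which 11 of 12 tested genes rose with a median of 2.98, averaged 7.23, 7.41, 8.70, 3.66 and 8.06 at 48 h, against 4.13, 4.27, 3.71, 6.63 and 3.57 at 24 h. Both mouse 4 arrays stood apart here: 48 h mouse 4 was as low as the 24 h mice, and 24 h mouse 4 lay near the 48 h mice. S100a8, a calcium-binding protein abundant in neutrophils, had 9.02, 9.34, 10.54, 2.67 and 9.90 at 48 h, against 4.13, 3.95, 3.43, 8.5 and 2.79 at 24 h. Its difference was 3.74 ± 1.09 (limma, adjusted p = 0.00918) and was not called when the fit held the 10 arrays alone (adjusted p = 0.088), a fit in which 3 of 12 neutrophil genes rose. Without both mouse 4 arrays 11 of 12 rose, with a median of 4.57, and without the filter on low values 12 of 18 rose, with a median of 1.69. The labels of both arrays were kept as given.

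Among the cytokines, Il1b, interleukin 1 beta, had 9.95, 9.94, 10.88, 6.49 and 10.60 at 48 h, against 4.24, 5.17, 4.33, 8.86 and 3.65 at 24 h. It rose by 4.32 ± 0.83 (limma, adjusted p = 0.000439), with 24 h mouse 4 above 48 h mouse 4, which was above the other 24 h mice. Il1rn, the receptor antagonist, rose by 2.94. Of 18 chemokine and interleukin-1 genes 6 rose and 2 fell: Cxcl12, a chemokine that draws leukocytes and progenitor cells, rose by 1.37.

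Monocyte and macrophage genes were less uniform, with 10 of 17 higher and none lower and a median of 1.56. Csf1r, the receptor of macrophage colony-stimulating factor, rose by 1.67 (0.93 and not called with the Gapdh covariate, adjusted p = 0.056) and Ccr2, the chemokine receptor of inflammatory monocytes, by 2.31. The mannose receptor Mrc1 of resident macrophages was not called (0.10, adjusted p = 0.905). The list mean was 6.82 in 48 h mouse 4 and 6.90 in 24 h mouse 4, but single members lay apart on these arrays: Chil3, a lectin of macrophages, had 5.64 in 48 h mouse 4 and 9.14 in 24 h mouse 4, and Aif1, an actin-binding macrophage protein, 9.68 and 8.15 in that order.

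The antigen presentation list averaged 10.00 in mouse 4 of the 48 h group, against 7.62 to 8.45 in the other 48 h mice. Of 12 genes of antigen presentation 6 rose and none fell. Cd74, the invariant chain, had 8.58, 9.14, 9.47, 11.35 and 9.64 at 48 h, against 7.63, 9.01, 6.04, 8.22 and 5.2 at 24 h. It rose by 2.42 ± 0.58 (limma, adjusted p = 0.00225), with 48 h mouse 4 highest of all 10 and 24 h mouse 2 above 48 h mouse 1. H2-Eb1, a chain of the MHC class II molecule, rose by 1.77. Cd74, H2-Eb1 and H2-Ab1, of the same list, kept their calls without 48 h mouse 4 and without both mouse 4 arrays. H2-DMb1, also of the list, was called without 48 h mouse 4 but not without both. Without 48 h mouse 4 the list had 5 higher and 4 lower, and without both mouse 4 arrays 4 higher and 3 lower. The interferon list had 1 of 14 lower, Ifit3 (−1.72), and none higher, a call lost without 48 h mouse 1, 3 or 5 (adjusted p = 0.0529 to 0.0673). Its mean was 8.64 in 48 h mouse 4, against 6.41 to 7.71 in the other 48 h mice, and 4 were lower without that mouse.

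T cell markers gave no call in 6 tested. The only B cell marker tested, Ebf1, a transcription factor also found outside B cells, fell by 2.14, and was not called with the Gapdh covariate (adjusted p = 0.095). The platelet (5 tested), erythroid (3), adipocyte (5), lymphatic endothelial (3) and Schwann cell (1) lists had no call. Of 9 smooth muscle genes Acta2, smooth muscle actin, rose by 1.58 and Synpo2 fell by 1.53, with no call when its probe sets were averaged (−0.57, adjusted p = 0.0884). Acta2 was 0.73 higher in the RCA, and its difference between LCA and RCA was not called (0.85, limma, adjusted p = 0.34). Of 10 fibroblast genes 1, Mfap5, fell by 0.72, a call lost without any of 7 of the 10 mice (adjusted p = 0.0616 to 0.184). Tnni2, 1 of 2 skeletal muscle genes, rose by 0.67 and was not called without 48 h mouse 2 (0.37, adjusted p = 0.0556), which had its highest value (6.03). The part of other cell types in the gene changes was not tested.

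**Figure D2:**
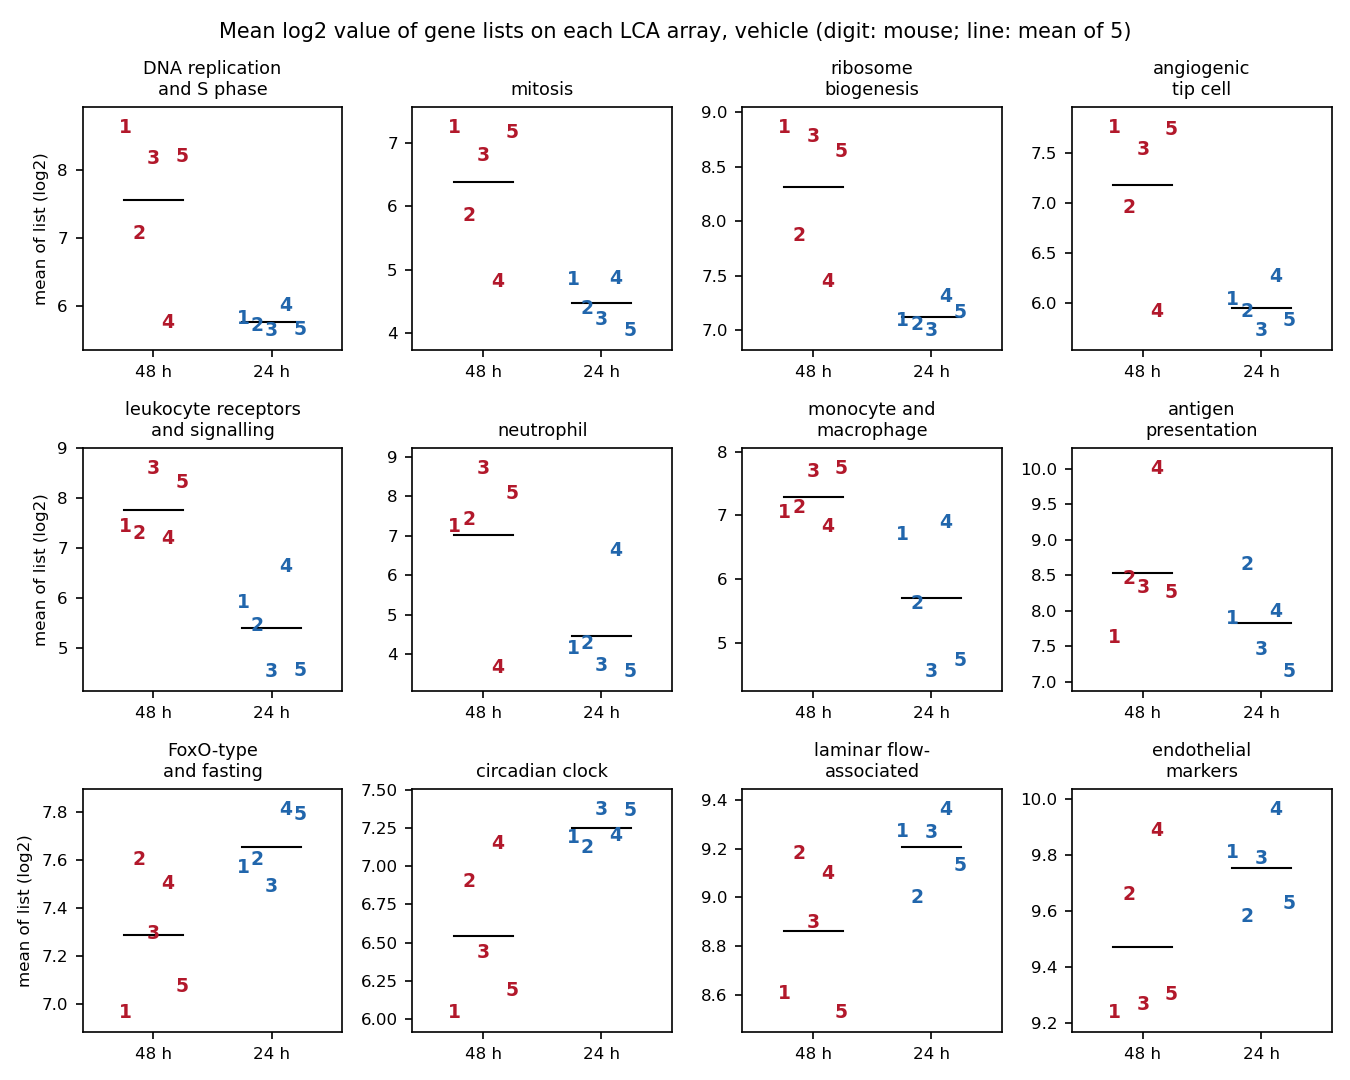
Mean log2 value of the tested genes of 12 lists on each LCA array of vehicle-treated mice, 48 h left of 24 h, each digit a mouse and the line the mean of 5. In the cell cycle, ribosome and tip cell lists 48 h mouse 4 lies near the 24 h mice, in the leukocyte list it lies with its own group at 7.19, and in the neutrophil list 24 h mouse 4 (6.63) lies far above the rest of its group.

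Of 20 tested endothelial genes tied to laminar flow 10 fell (50%, against 14.4% of all tested genes) and 1 rose, with a median of −0.35. Their median difference in the unligated RCA was −0.27, with no call, and in the difference between LCA and RCA it was −0.14, with 4 lower and 2 higher. Klk10, a kallikrein-related serine protease raised by laminar flow, had 5.84, 5.12, 5.99, 6.29 and 4.63 at 48 h, against 7.84, 6.77, 7.89, 7.69 and 7.33 at 24 h. The groups did not overlap and 48 h mouse 4 was not apart from the rest of its group. Klk10 fell by 1.93 ± 0.42 (limma, adjusted p = 0.00114). Klf4, a flow-induced transcription factor, had 7.25, 9.46, 8.53, 9.91 and 7.45 at 48 h, against 10.27, 9.90, 10.17, 9.88 and 10.34 at 24 h. It fell by 1.59 ± 0.46, with mouse 4 just above the lowest 24 h value. The Klf4 difference in the RCA was −0.40, and the difference between LCA and RCA was not called (−1.20, limma, adjusted p = 0.0544). Gch1, of tetrahydrobiopterin synthesis, was the member that rose, by 1.43 ± 0.31, or 0.75 with the mean of its probe sets.

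Klf2 and Nos3 need the control artery beside them. Klf2, the companion of Klf4, fell by 0.72 (limma, adjusted p = 0.0461), a call lost without any of 8 of the 10 mice (adjusted p = 0.0517 to 0.157), and its difference in the RCA was −0.77. Nos3, endothelial nitric oxide synthase, fell by 0.62 in the LCA, with no call without 24 h mouse 1 (adjusted p = 0.0556), and its difference in the RCA was −0.62. The difference between LCA and RCA was 0.05 for Klf2 (adjusted p = 0.92) and −0.00 for Nos3 (adjusted p = 1), and neither was called. Fitted to the 10 arrays alone, 6 of the 20 fell.

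Of the 17 endothelial markers 6 fell (35.3%, against 14.4% of all tested genes) and 1, Kdr, rose (5.88%, against 17.3%). Pecam1, the junctional adhesion protein CD31, fell by 0.82, the angiopoietin receptor Tek by 0.77 and the transcription factor Erg by 0.58, while Cdh5, VE-cadherin, was not called (−0.05, adjusted p = 0.818). Of 16 genes of Notch signalling and arterial identity 3 fell (18.8%, against 14.4% of all tested genes) and 1 rose, so the list was close to all genes. Sox17, an arterial transcription factor, had 10.06, 10.25, 9.48, 10.21 and 9.86 at 48 h, against 10.77, 11.26, 10.91, 10.55 and 11.27 at 24 h. It fell by 0.98 ± 0.22 with no overlap. The Notch target Hey2 fell by 1.19 and the kinase Bmx by 1.26.

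Inflammatory adhesion genes did not move as 1 group: of 17 tested 4 rose (23.5%, against 17.3% of all) and 1 fell (5.88%, against 14.4%). Sele, E-selectin, had 10.67, 10.08, 10.57, 8.95 and 10.60 at 48 h, against 7.01, 8.38, 7.46, 9.21 and 8.14 at 24 h. It rose by 2.13 ± 0.58 (limma, adjusted p = 0.00583), with 24 h mouse 4 above 48 h mouse 4, and its difference between LCA and RCA was not called (1.29, adjusted p = 0.318). Edn1, endothelin 1, rose by 0.99 ± 0.23 without overlap, but it was 0.79 higher in the RCA as well, and the difference between the arteries was 0.20 (adjusted p = 0.791). Vcam1, a receptor for leukocyte integrins, differed by −0.23 and was not called (adjusted p = 0.526). Neither was Icam1, of the same kind, at −0.01 (adjusted p = 0.939), which lay between 10.92 and 11.24 on all 10 arrays.

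In the transforming growth factor family Tgfbi, a secreted target, rose by 2.07, and the co-receptor Tgfbr3 fell by 1.56 ± 0.36, and of 15 genes 2 rose and 3 fell. Of 14 BMP and ID genes 3 fell and 1 rose. These counts come to 20% and 21.4% lower, against 14.4% of all tested genes, and to 13.3% and 7.14% higher, against 17.3%. The riser was Id1, an inhibitor of differentiation factors, by 1.30, which was not called with the Gapdh covariate (adjusted p = 0.0515). Its difference in the RCA was −1.36, and the difference between LCA and RCA was 2.65 (limma, adjusted p = 6.15e-05).

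More genes of fasting and FoxO activity fell than rose. Of 21 tested 12 fell (57.1%, against 14.4% of all tested genes) and 2 rose, with a median of −0.62. The list averaged 7.60 and 7.50 in 48 h mice 2 and 4, inside the 24 h range of 7.49 to 7.81. In 48 h mice 1, 3 and 5 it averaged 6.97, 7.29 and 7.07. Klf15, a transcription factor induced by fasting and glucocorticoids, had 3.77, 6.44, 4.28, 6.57 and 3.73 at 48 h, against 6.73, 6.71, 6.91, 6.75 and 7.23 at 24 h. The groups did not overlap, with mice 2 and 4 just below the 24 h values, and Klf15 fell by 1.91 ± 0.42 (limma, adjusted p = 0.00116). Pdk4, which turns off pyruvate dehydrogenase, had 7.04, 8.42, 7.78, 8.44 and 7.33 at 48 h, against 8.65, 8.95, 8.51, 9.39 and 9.26 at 24 h, and fell by 1.15 ± 0.30, again with no overlap. The cell cycle inhibitor Cdkn1c fell by 1.76. Of 13 glucocorticoid-responsive and metallothionein genes 6 fell (46.2%), Sult1a1 and Zbtb16 among them, and none rose.

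Of 15 circadian clock genes tested 6 fell (40%, against 14.4% of all) and 2 rose (13.3%, against 17.3%), between groups labelled 24 h apart. The list averaged 7.15 in 48 h mouse 4, inside the 24 h range of 7.12 to 7.37, and 6.05 to 6.90 in the other 48 h mice. Per2, a repressor of the clock, had 4.27, 5.2, 4.52, 6.29 and 3.94 at 48 h, against 7.26, 7.26, 7.30, 6.69 and 7.42 at 24 h. It fell by 2.34 ± 0.38 (limma, adjusted p = 0.000106) with no overlap. Tef, a clock output factor, had 7.35, 9.0, 7.55, 9.35 and 7.08 at 48 h, against 9.81, 9.66, 9.72, 9.73 and 9.82 at 24 h, and fell by 1.68 ± 0.32. Of the same family Dbp fell by 2.50 and Hlf by 1.33, and the repressor Per3 fell by 1.70. Clock, an activator of the loop, was 1 of the 2 that rose, by 0.91, or 0.43 with the mean of its probe sets. In the RCA the difference was −0.46 for Per2 and 0.07 for Tef, and 7 of 15 clock genes were lower and 1 higher in the difference between LCA and RCA. The labels do not give the hour of collection.

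Of 17 genes of defence against oxidation 4 were higher (23.5%, against 17.3% of all tested genes) and 5 lower (29.4%, against 14.4%). Gsr, glutathione reductase, rose by 1.35 ± 0.28 and Txnrd1, thioredoxin reductase, by 1.22, while Gsta4, a glutathione transferase, fell by 1.70 and Nqo1, a quinone reductase, by 0.80. Of 12 coagulation and fibrinolysis genes 4 rose (33.3%), Plau and Plaur among them, and 1 fell (8.33%).

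Over the 4 times of collection in vehicle-treated mice these groups took different courses, given here as means with no test beyond the 48 h and 24 h pair. The S phase list stood at 5.76 at 12 h, 5.77 at 24 h, 7.57 at 48 h and 6.01 at 2 weeks in the LCA, a peak at 48 h alone. The neutrophil list did the same, with 4.29, 4.46, 7.01 and 4.44 in that order. The leukocyte list stayed up, with 5.36, 5.41, 7.76 and 8.01. Mki67 also stayed up in the LCA (6.86, 7.03, 10.18 and 10.04), while in the RCA it had 6.50, 6.94, 8.33 and 5.94. Esm1 was high at 48 h only, with 3.62, 2.81, 8.29 and 3.33 in the LCA and 2.68 to 3.25 in the RCA. Klk10 was lower at each later time in the LCA, with 8.84, 7.51, 5.58 and 4.97, against 10.58, 10.71, 10.14 and 10.36 in the RCA. Dbp had 4.88, 8.63, 6.13 and 8.37 in the LCA and 4.33, 8.72, 8.39 and 9.61 in the RCA. The arteries thus lay closer at 12 h and 24 h than at 48 h and 2 weeks. In the LCA at 48 h Dbp ran from 4.37 in mouse 1 to 8.67 in mouse 4.

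**Figure D3:**
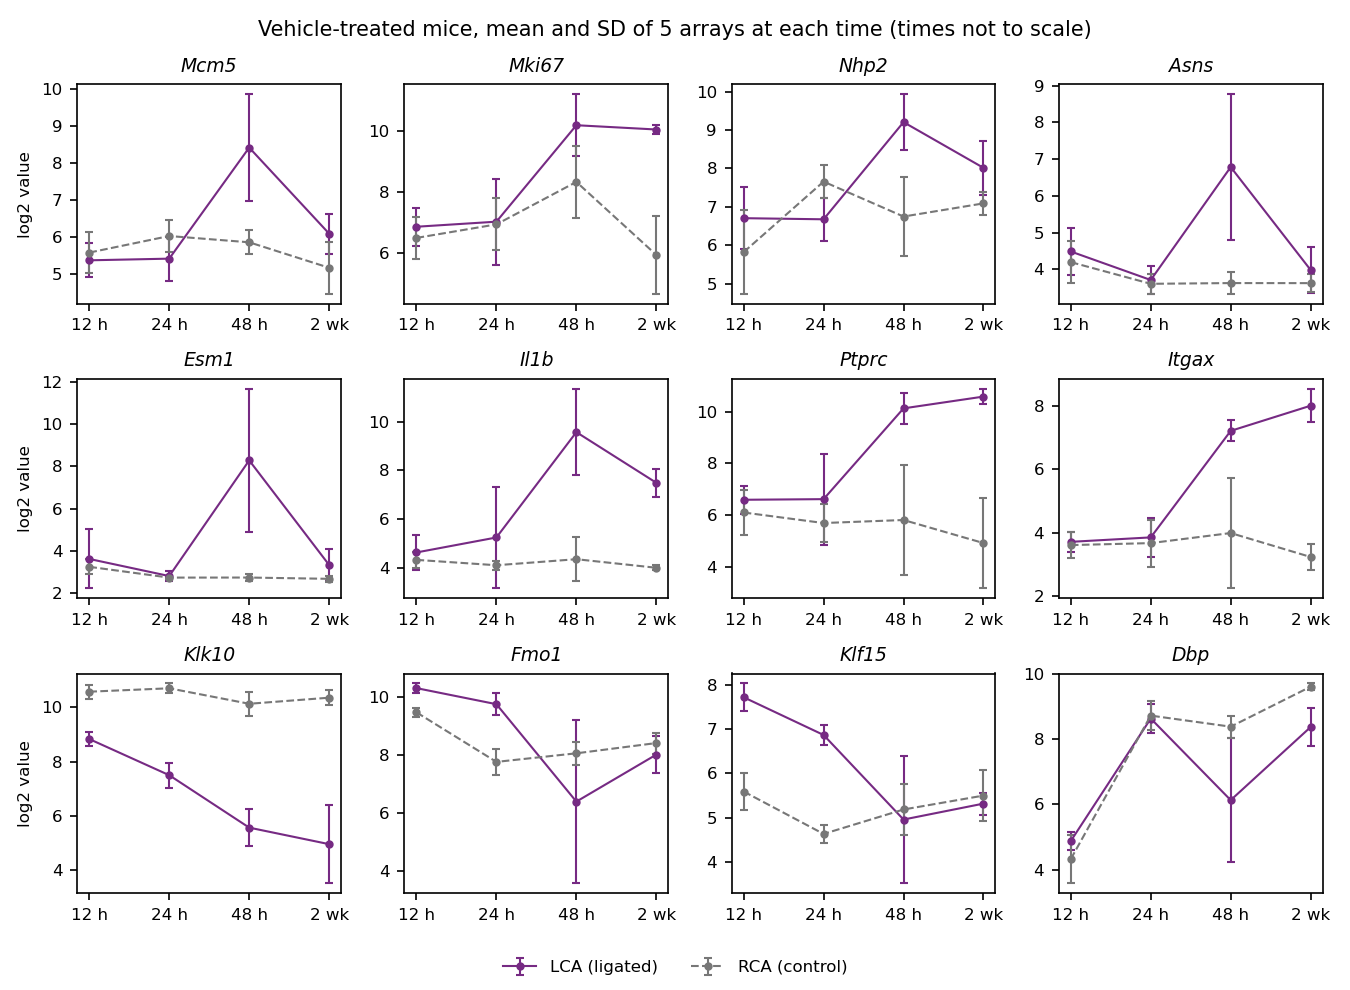
Mean and SD of 5 arrays at 12 h, 24 h, 48 h and 2 weeks in vehicle-treated mice for 12 genes, LCA as a solid line and RCA as a dashed one, with times not to scale. Esm1 reached 8.29 in the LCA at 48 h and 2.74 in the RCA, and Klk10 stood at 4.97 in the LCA at 2 weeks, against 10.36 in the RCA.

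The change between 24 h and 48 h was also present under atorvastatin. In the LCA of atorvastatin-treated mice 3002 genes passed (26.5%), 1321 (11.6%) higher at 48 h and 1681 (14.8%) lower. The shift of all genes there had a median of −0.02. Of the 3596 genes called in vehicle-treated mice 2201 (61.2%) were called in the same direction under atorvastatin, which is 73.3% of the calls there, and none was called in the opposite direction. The 2 comparisons set different arrays against each other, but they were fitted together and share the same estimate of the spread for each gene. A gene with a small shared spread is more easily called in both, so the overlap of calls is not an independent replication. The log2 differences, which do not use that estimate, correlated at 0.889 (Pearson) over the tested genes. The test of the difference between both changes found none of 11344 genes in limma (0%), with 295 (2.6%) at an unadjusted p under 0.05. Fitted to its own 9 arrays alone, the atorvastatin comparison had 6 calls.

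The lists ran in parallel for the most part. Under atorvastatin 15 of 18 ribosome biogenesis genes, 17 of 19 leukocyte genes, 11 of 21 tip cell genes, 13 of 28 S phase genes and 12 of 27 mitosis genes rose, against 11.6% of all tested genes. Of the FoxO and fasting list 11 of 21 fell and of the clock list 7 of 15, against 14.8% of all. Esm1 rose by 4.0, Il1b by 4.24 and Nhp2 by 2.47 under atorvastatin, against 5.48, 4.32 and 2.53 with vehicle, and Klk10 fell by 1.76 under atorvastatin and fell by 1.93 with vehicle. None of the 12 antigen presentation genes was called there, Cd74 differing by 1.37 (limma, adjusted p = 0.0931). Gadd45a, a growth arrest and DNA damage gene, rose by 2.12 under atorvastatin (limma, adjusted p = 0.00173) and was not called with vehicle (0.73, adjusted p = 0.205); the difference of these changes was not among the calls.

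**Figure D4:**
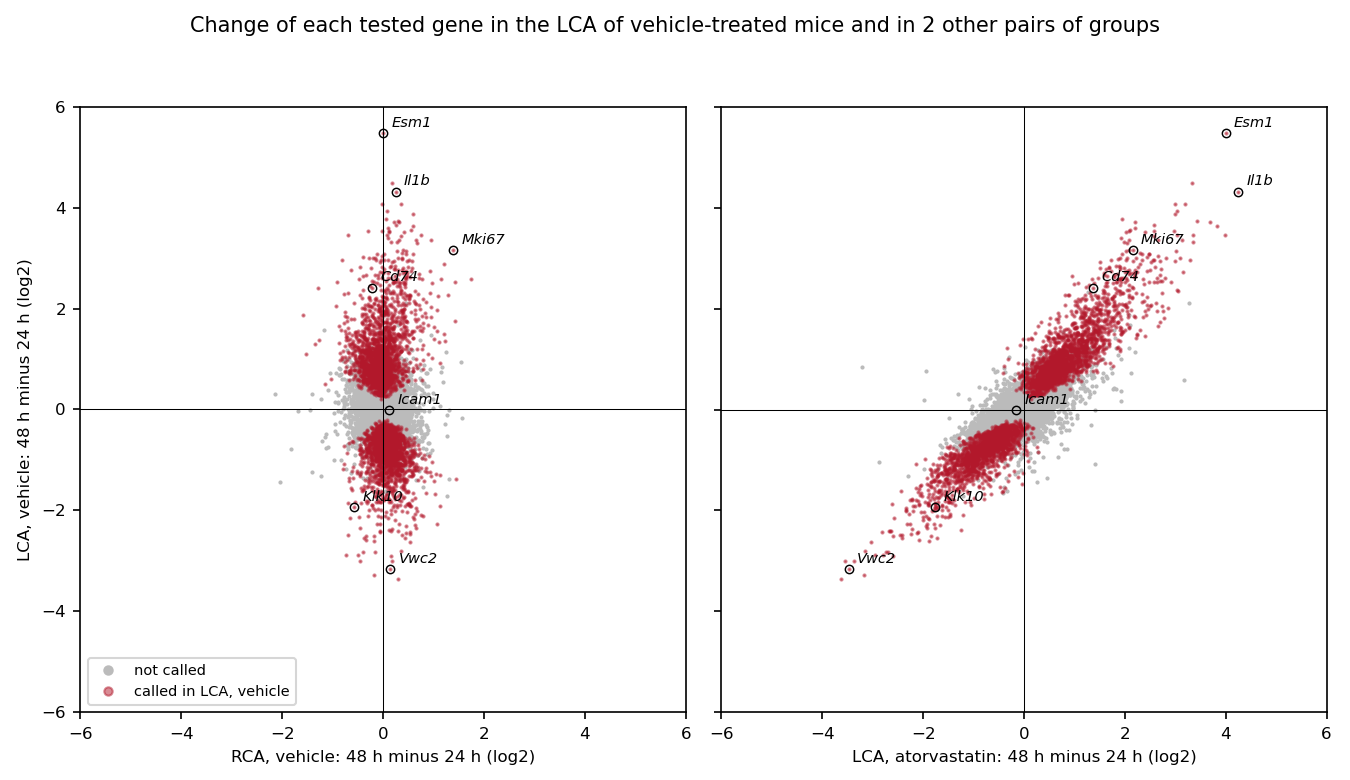
Log2 difference, 48 h minus 24 h, of each of 11344 tested genes in the LCA of vehicle-treated mice (vertical) against the same difference in the RCA of the same mice (left) and in the LCA of atorvastatin-treated mice (right), with genes called in the vehicle LCA in red. The red points spread little along the RCA axis, where no gene was called, and run along the diagonal on the right, where Esm1 stands at 4.0 and 5.48.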

How the data were processed

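The deposited values are log2 expression levels per probe set that the authors obtained with RMA, per the submitters' processing notes; their software version is not given in the sources used here. No counts exist for such arrays, and the number of arrays limits the precision. Of 45118 probe sets, 28898 were annotated to 1 gene symbol and were used, 551 to several and 15588 to none, and 81 were controls. They gave 17097 genes, and 7180 with more than 1 probe set were represented by the one with the highest mean. Genes above the array's 50th percentile on at least 4 arrays were tested, 11344 in all. limma 3.58.1 in R 4.3.3 was fitted to the 39 LCA arrays in 8 groups, which share 1 estimate of the spread, with Benjamini-Hochberg adjustment over all tested genes and a threshold of 0.05; statmod 1.5.0 served the block fits. The LCA minus RCA contrast used the difference within each mouse. Each array is 1 mouse. The SE and p-values of limma measure the spread between mice pooled over all groups in the fit, not that of the compared groups alone. With only the compared groups in the fit, 31 of the 162 genes taken up by the rule or added to it lost their call.

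The genes described are the 10 largest rises and falls among called genes whose groups did not overlap, up to 4 called members of each of 43 lists, and 16 fixed genes, 144 in all by rule. Predicted genes were left out of the largest rises and falls. A further 18 list members (Pcna, Trib3, Bnip3, Flt1, Pdgfb, Nrp1, Timp2, Cxcl12, Csf1r, Ccr2, Mrc1, Cdh5, Pecam1, Tek, Erg, Hlf, Clock and Nqo1) were chosen after their values were seen. The comparison, lists and genes were chosen with earlier results of these data known. Of 699 list genes 628 were named by a probe set and 554 were tested. On simulated data made from these arrays, with 5 runs of 200 changed genes among 11344, the fit of the 48 h against 24 h LCA recovered 14.89% of changes of 0.5, 66.47% of changes of 1 and 95.73% of changes of 2 on the log2 scale. The simulated noise was independent between genes and had the same spread in all groups. Far fewer genes changed than were called here, so recovery in the data themselves may differ. Alternatives tried were other variance models, normalization, filters, probe set summaries, blocks, covariates, array weights and leaving out mice.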

Additional observations from a re-analysis of the deposited data

Results flagged for a closer look

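In each group of 5, the highest or lowest value was compared with its nearest neighbour for 162 genes, 324 sets in all, and 28 values (8.64%) stood apart by a gap over 0.71 times the range of their group. Chance alone sets apart about 1 group in 20. Mouse 4 of either group gave most of these values.

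In the 48 h group mouse 4 was far below the other mice in 10 genes. They were Mcm5 at 5.957, Il1b at 6.488, Tgfb1 at 6.026, Sox4 at 6.401, the metalloproteases Adam12 at 3.462 and Adamts4 at 4.318, Ccn1 at 10.296, and the neutrophil genes S100a8 at 2.673, S100a9 at 4.13 and Hdc at 4.107. In the 24 h group mouse 4 was far above the others in 10 genes. They were S100a8 at 8.5, S100a9 at 10.337, Hdc at 6.19, Il1r2 at 6.701, Il1rn at 5.27, Igfbp3 at 3.497, Pgk1 at 10.468, Cycs at 9.223, Gsr at 9.547 and the clotting factor F10 at 5.334. It was far below the others in Fmo5 at 8.048 and Per2 at 6.693. S100a8, S100a9 and Hdc were thus set apart in both groups, in opposite directions.

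The remaining 6 values belonged to other mice. At 48 h Tnni2 was high in mouse 2 at 6.029. At 24 h Atp2b2 was high in mouse 1 at 8.254, while Gch1 and Clock were low there at 5.916 and 7.207. Aqp1, a water channel, was high in 24 h mouse 3 at 10.479, and Slc7a5 in 24 h mouse 5 at 4.866.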

How the results depend on the processing

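The count of 3596 genes in the 48 h against 24 h LCA lay between 2467 (without 48 h mouse 3) and 4417 (without 48 h mouse 4) with single mice left out. It was 6371 with array weights, and between 2860 and 4347 under the other settings. The genes called changed as well: 2315 of the 2965 called with the Gapdh covariate were among the 3596. With only the compared groups in the fit, 2603 of the 2860 called were among them. Calls in the RCA numbered 5 with a trended, robust variance and 33 with array weights, and 0 to 26 with a mouse left out. The LCA minus RCA count of 3149 was 4950 with array weights, 884 with the Gapdh ratio as a covariate, and 1858 to 3884 with a mouse left out. The atorvastatin count of 3002 was 6 when fitted to its own arrays, 5464 with array weights (53.7% higher at 48 h, against 44%), and 1718 to 4198 with a mouse left out. The causes were not tested. Under a repeated quantile normalization 48.8% of the calls in the vehicle LCA were higher, against 54.4%.

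With the mouse number as a replicate block the vehicle count was 3427; these numbers did not pair the mice (correlations of −0.24 to −0.0637). The number in the code that opens each title, whose meaning is not stated, left 3591 as a random block. In vehicle-treated mice only number 6 held both times, through the 48 h array that stands apart: 48 h mouse 4 minus 24 h mouse 3 was 0.11 for the S phase list, 2.66 for the leukocyte list and −0.05 for the neutrophil list. In atorvastatin-treated mice the same 3 differences were 2.36, 2.98 and 3.30 within number 1 and 0.11, 0.64 and 0.56 within number 3. The Gapdh end ratio differed by −1.17 to −0.87 with a mouse left out, and that of b-actin by −0.0092.

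Of 157 called genes among the 162 taken up by the rule or added to it, not all of them described in the text, 101 were called under every setting and 35 lost the call without at least 1 mouse. Small differences changed sign with a mouse left out: Icam1 ranged from −0.05625 to 0.026 (0.00515, 0.0109, 0.01275 and 0.00025 in between), Mrc1 from −0.2505 to 0.4565 (−0.00575, −0.05205 and −0.0393 in between) and Cdh5 from −0.09315 to 0.01135. Cdh5 was 0.0974 with the mean of its probe sets.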

Other observations

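Several gene families grouped by symbol, chosen after seeing the data, moved mostly one way in the LCA between 24 h and 48 h, read against 17.3% of all tested genes higher and 14.4% lower. Subunits of the proteasome, which degrades ubiquitin-tagged proteins, were among them: 7 of 8 Psma genes, 6 of 10 Psmb genes and 11 of 13 Psmd genes rose and none fell, with median differences of 0.69, 0.60 and 0.81. Of 16 Nup genes, which encode proteins of the nuclear pore, 12 rose, with a median of 0.83. RNA-processing families were similar, with 8 of 12 Lsm genes and 5 of 8 Exosc genes higher. Of the ribosomal proteins of mitochondria 24 of 45 Mrpl and 12 of 27 Mrps genes rose, and of the Timm genes of the inner-membrane import machinery 5 of 12, none of these families having a gene that fell.

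Other families had more falls than rises. Of 254 Zfp genes, which encode zinc finger proteins, 49 fell and 7 rose, with a median of −0.23. Of 18 Cyp genes, which encode cytochrome P450 enzymes, 7 fell and 1 rose, with a median of −0.36. Of 11 Klf genes 5 fell and 1 rose (median −0.56), of 9 Fgf genes, which encode fibroblast growth factors, 3 fell and none rose (median −0.76), and of 9 Osbpl genes, which encode lipid-binding proteins, 4 fell and none rose (median −0.27).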
